A study of Mus musculus with 4 samples.

Results

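Synaptotagmins are membrane proteins of secretory vesicles and of the cell surface, and 10 of their genes were followed here in the mouse line Beta-TC-6, which derives from pancreatic beta cells and secretes insulin. The genes are Syt1, Syt3, Syt4, Syt5, Syt7, Syt9, Syt10, Syt11, Syt13 and Syt14, which are 10 of the 17 synaptotagmin genes with a probe set of their own and 10 of the 22180 genes that could be named on the array. They were selected on results of the same comparison, in which Syt10 stood out. Their differences are therefore described without a test, and no p-value is given for them.

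RNA was profiled on Affymetrix Mouse Gene 2.1 ST arrays, which probe whole transcripts in a single colour. One group of cells received a mixture of siRNA duplexes against NF90 (siNF90, 2 arrays), and the other a negative control siRNA (siNTC, 2 arrays). NF90 is a protein that binds double-stranded RNA, and its own transcript was not analysed here, so siNF90 arrays are described by their label. All cells are of 1 line, were transfected with the same lipid reagent and were grown in DMEM with serum, and the time from transfection to harvest is not given in the sources used here. The labels do not say whether arrays of the same group stem from different cultures, so p-values and errors reflect only how far these arrays vary, and that variation may be technical.

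A synaptotagmin has a membrane anchor and a pair of C2 domains. In many members these domains bind calcium and phospholipids, which couples the entry of calcium to the fusion of vesicles with the plasma membrane by SNARE proteins. Other members lack the acidic residues that bind calcium and act in vesicle traffic in other ways. Beta cells use this machinery to release insulin granules when glucose opens voltage-gated calcium channels.

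All 10 probe sets lay above the median level of all genes (1.84 on the log2 scale), and no measure of background was used here. Arrays of a group agreed at r = 0.9919 in siNF90 and r = 0.9927 in siNTC, and the median gap between the arrays of a group was 0.15 in both groups (log2, across 22180 genes, which are not independent replicates). Of the 10 beta cell markers measured, 9 reached the median level, and Ucn3, a marker of mature beta cells, averaged 1.62 ± 0.33 in siNF90 and 1.56 ± 0.04 in siNTC (log2, SD, n = 2 arrays each). Of the 10, 5 were higher and 5 lower in siNF90, with a median difference of 0.01. The widest difference was in Slc2a2, the glucose transporter GLUT2, named like the next genes after its values were seen, with 4.78 and 4.86 in siNF90, against 6 and 5.8 in siNTC. Its log2 difference was -1.08 (limma, adjusted p = 0.342, or 0.0153 where the prior on the variance varies with expression level). The transcription factor genes Nkx6-1 and Mafa differed by 0.45 and 0.38 (adjusted p = 0.397 and 0.481). The part of the beta cell markers in the synaptotagmin values was not tested. The line also carried Gcg (glucagon) well above the median level, at 8.83 ± 0.07 in siNF90 and 8.62 ± 0.18 in siNTC.

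Of the 10 members, 8 had higher means in siNF90, led by Syt10 at 2.31-fold, Syt11 at 1.52-fold and Syt9 at 1.39-fold, and Syt7 and Syt14 had lower ones. For 6 members the siNF90 arrays were both higher than either siNTC array, where 21.9% of all genes and 26.3% of genes reaching the median level did so. For Syt7 and Syt14 both were lower than either, as in 17.9% of all genes and 21.8% of genes reaching that level. The arrays of the groups overlapped for Syt1 and Syt3. Because the members were selected with this comparison known, nothing is read from these shares. The median log2 difference of the 10 members was 0.25, against 0.02 over all genes and 0.02 over genes reaching the median level. For the same reason, nothing is read from how this median compares with other genes. The member median was 0.14 without the first siNF90 array, and between 0.18 and 0.34 without each of the other arrays. In bulk RNA a larger share of cells with a transcript and more of it per cell cannot be told apart.

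**Figure D1:**
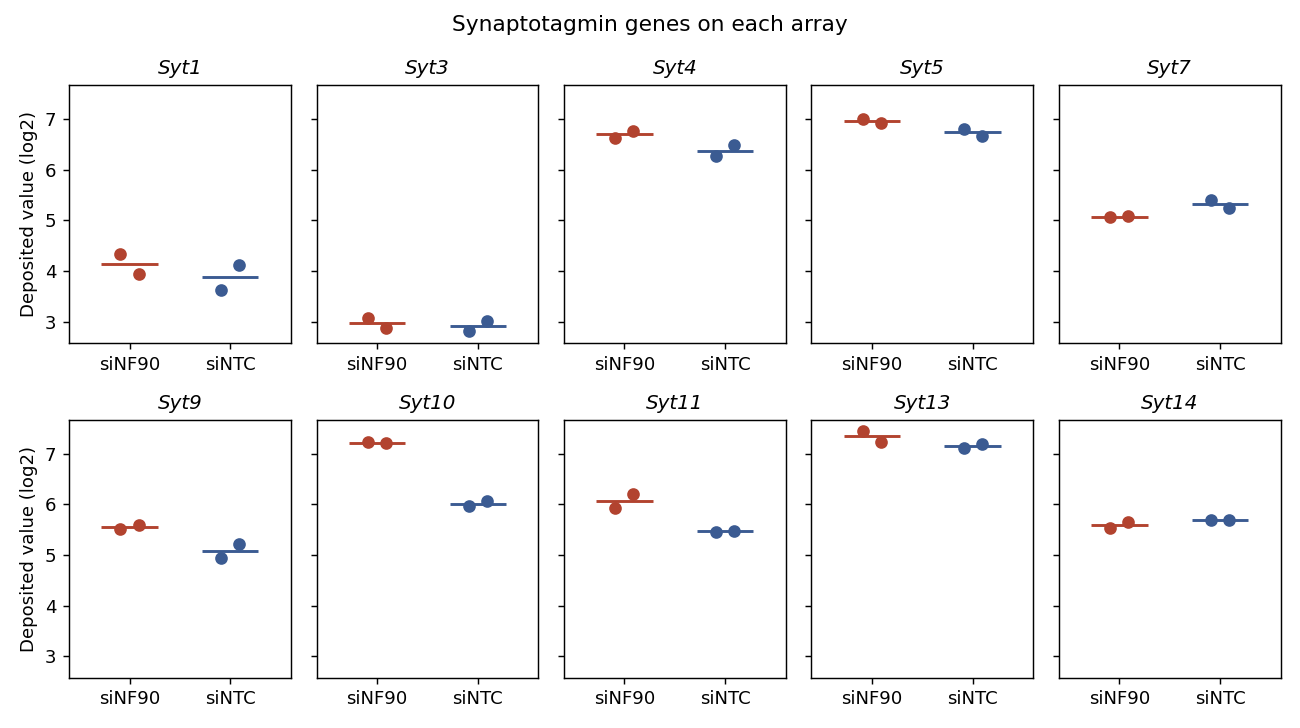
Deposited log2 value (vertical axis) of each synaptotagmin gene on the 2 siNF90 and 2 siNTC arrays; points are arrays and bars are group means. Syt10 sits at 7.21 and 7.23 in siNF90, above 5.96 and 6.07 in siNTC, while the points of Syt1 and Syt3 overlap. Levels of different genes come from different probes and are not to be compared.

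Syt10 belongs to a calcium-binding branch whose members, Syt3 and Syt6 among them, carry cysteines near the amino end through which they pair. In mouse olfactory bulb neurons it is known as the calcium sensor for release of an insulin-like growth factor. Its values (probe set 17320571) were 7.23 and 7.21 on the siNF90 arrays, against 5.96 and 6.07 on the siNTC arrays. The siNF90 arrays were nearly equal, and the gap of 1.14 between the nearest arrays of the groups compares with gaps of 0.02 within siNF90 and 0.11 within siNTC. The means were 7.22 ± 0.014 in siNF90 and 6.02 ± 0.078 in siNTC (SD, n = 2 each), a log2 difference of 1.21 ± 0.12 (SE of the fit). Of all 22180 genes, 4 had a difference as high as this one, Syt10 included. Leaving out each array in turn gave differences from 1.15 to 1.26.

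The promoter windows of Syt10, Syt9 and Syt11, the 3 members with the largest differences, are shown with that of Syt14, whose mean was slightly lower in siNF90. The sequences are RefSeq windows of GRCm38.p6, from 250 bases before to 50 bases after an annotated start, read 5′ to 3′ on the strand of the gene. They lie at chr15:89841811-89842110 (minus strand) for Syt10, chr7:107370540-107370839 (plus strand) for Syt9, chr3:88772550-88772849 (minus strand) for Syt11 and chr1:193035726-193036025 (minus strand) for Syt14. Capitals mark matches on either strand to TGACG (a half-site of the cAMP response element), CACGTG (an E-box), CCAAT (the CCAAT box), GGGCGG (the GC box) or TATAAA (the TATA box).
Syt10: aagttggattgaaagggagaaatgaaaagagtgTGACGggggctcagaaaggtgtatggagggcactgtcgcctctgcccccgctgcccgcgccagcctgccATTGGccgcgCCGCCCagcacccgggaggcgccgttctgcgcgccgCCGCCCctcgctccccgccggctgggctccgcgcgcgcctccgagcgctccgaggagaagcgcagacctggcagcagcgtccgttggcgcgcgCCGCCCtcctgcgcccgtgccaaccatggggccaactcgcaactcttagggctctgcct
Syt9: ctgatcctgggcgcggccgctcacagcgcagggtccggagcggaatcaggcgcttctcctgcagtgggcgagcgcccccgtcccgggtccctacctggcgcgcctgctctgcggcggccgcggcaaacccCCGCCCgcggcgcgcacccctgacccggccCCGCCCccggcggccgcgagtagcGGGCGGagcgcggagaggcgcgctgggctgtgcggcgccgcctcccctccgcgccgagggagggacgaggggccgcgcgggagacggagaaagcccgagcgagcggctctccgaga
Syt11: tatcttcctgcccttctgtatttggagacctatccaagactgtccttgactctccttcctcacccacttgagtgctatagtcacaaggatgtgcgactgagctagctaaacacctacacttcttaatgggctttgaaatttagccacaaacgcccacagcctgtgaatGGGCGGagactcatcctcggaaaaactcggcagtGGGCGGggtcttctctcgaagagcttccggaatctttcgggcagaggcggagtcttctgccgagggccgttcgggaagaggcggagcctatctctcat
Syt14: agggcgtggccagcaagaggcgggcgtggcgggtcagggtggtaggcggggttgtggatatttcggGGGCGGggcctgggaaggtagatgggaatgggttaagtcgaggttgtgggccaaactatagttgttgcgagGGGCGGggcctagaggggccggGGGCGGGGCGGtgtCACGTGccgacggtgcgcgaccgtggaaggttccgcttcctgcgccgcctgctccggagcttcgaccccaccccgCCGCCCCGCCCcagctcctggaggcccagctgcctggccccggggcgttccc

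All 4 windows held GC boxes, the motif of Sp1 and its relatives, with 3 matches in Syt10, 3 in Syt9, 2 in Syt11 and 6 in Syt14, of which adjoining matches in Syt14 overlap. Of 32851 RefSeq windows of this length, 35.7% held at least 1 GC box. Of the member windows not shown, that of Syt3 and 1 of the 2 of Syt1 held none, and the other Syt1 window held 1. The Syt10 window also held a TGACG match starting 217 bases before the start, a motif in 20.8% of windows, and a CCAAT match 148 bases before it, in 37.4% of windows. The E-box of Syt14, at 77 bases before the start, is a motif found in 7.2% of windows. None of the 4 held TATAAA, which 13.6% of windows did. The share of G and C was 70.7% in Syt10, 79.3% in Syt9, 53.0% in Syt11 and 71.3% in Syt14, against a median of 52.7% over all windows. Of the 10 members, 6 had a window in the table, the other 2 being Syt1 and Syt3. A match is only a run of letters, and the arrays do not measure binding.

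Among the other calcium-binding members, Syt9 had the largest difference. Calcium sensors of dense-core vesicles have been described under the names Syt5 and Syt9 and linked to insulin release in rodent beta cell lines, but the literature has exchanged these names, so such roles cannot be tied here to either array gene. Its probe set 17481541 had 5.51 and 5.6 in siNF90, against 4.94 and 5.22 in siNTC. The groups did not overlap, though the siNTC arrays were 0.28 apart. The log2 difference was 0.48 ± 0.14 (SE), and 0.34 without the first siNTC array or 0.61 without the second.

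Syt5, a calcium-binding member read by probe set 17485815, had 7 and 6.92 in siNF90, against 6.8 and 6.67 in siNTC. Every siNF90 value was above every siNTC value, by at least 0.12, close to the 0.13 between the siNTC arrays, and the difference was 0.23 ± 0.12 (log2, SE). Syt7, a slow sensor with high calcium affinity that supports glucose-stimulated insulin secretion in mice, went the other way. Its probe set 17357486 had 5.06 and 5.08 in siNF90, against 5.4 and 5.24 in siNTC. The groups were apart by 0.16, as much as the siNTC arrays differed from each other, and the log2 difference was -0.25 ± 0.12 (SE), between -0.33 and -0.17 when each array was left out.

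Syt1 is the sensor of fast transmitter release in forebrain neurons. Its probe set 17244843 had 4.34 and 3.94 in siNF90, against 3.62 and 4.12 in siNTC. The arrays within each group were further apart than the group means, at 0.4 in siNF90 and 0.5 in siNTC, and the log2 difference of 0.27 ± 0.22 (SE) was 0.02 without the first siNTC array and 0.07 without the first siNF90 array. Syt3, known in neurons for the internalisation of glutamate receptors and read by probe set 17477454, had 3.07 and 2.87 in siNF90, against 2.81 and 3.02 in siNTC. These values interleave, and the difference of 0.055 ± 0.14 (log2, SE) changed sign without the first siNTC array (-0.05) and without the first siNF90 array (-0.045).

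**Figure D2:**
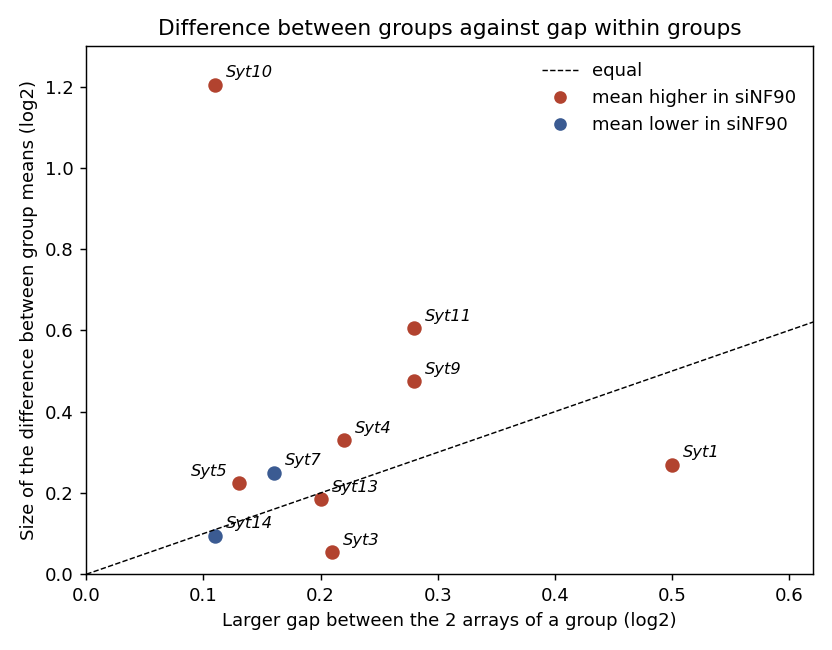
Size of the difference between the group means (vertical axis, log2) against the larger of the gaps between the 2 arrays of a group (horizontal axis, log2), one point per member, red where the siNF90 mean was higher and blue where it was lower. The dashed line marks equality. Syt10, at 1.21 against 0.11, lies far above the line, and Syt1, Syt3, Syt13 and Syt14 lie below it.

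Of the 4 members that do not bind calcium, Syt11 and Syt4 are close relatives in which a serine replaces a calcium-binding aspartate. Syt11 is known for restraining vesicle uptake in neurons. Its probe set 17406831 had 5.93 and 6.21 in siNF90, against 5.46 and 5.47 in siNTC. The siNTC arrays were nearly equal and both siNF90 arrays stood above them, by 0.46 at the least. The means were 6.07 ± 0.2 in siNF90 and 5.47 ± 0.0071 in siNTC (SD, n = 2 each), a log2 difference of 0.61 ± 0.14 (SE). Leaving out siNF90 arrays gave 0.47 (second array left out) and 0.74 (first array left out).

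Syt4 increases as mouse beta cells mature and lowers the calcium sensitivity of insulin secretion. Its probe set 17353232 had 6.63 and 6.77 in siNF90, against 6.26 and 6.48 in siNTC. The groups were apart by 0.15, less than the 0.22 between the siNTC arrays, and the log2 difference was 0.33 ± 0.14 (SE), or 0.22 without the first siNTC array. Syt4 was the only member with more than 1 probe set of its own. The other 2, 17349132 and 17548044, averaged 1.32 and 1.27 over the 4 arrays, below the median level, with differences of -0.025 and 0.21. The mean of the 3 probe sets differed by 0.17.

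Syt13, which takes part in the emergence of endocrine cells in the mouse pancreas and was read by probe set 17373530, had 7.44 and 7.24 in siNF90, against 7.11 and 7.2 in siNTC. Only 0.04 parted the groups, less than the gap within either, and the difference of 0.19 ± 0.13 (log2, SE) was 0.085 without the first siNF90 array. Syt14, a member with little known of its function (probe set 17231174), had 5.54 and 5.65 in siNF90, against 5.69 on both siNTC arrays. Its difference was -0.095 ± 0.12 (log2, SE), and -0.04 without the first siNF90 array. Grouped by calcium binding, 5 of 6 binding members and 3 of 4 non-binding members were higher in siNF90, with median log2 differences of 0.25 and 0.26.

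Limma's test over all genes called none of the 7 synaptotagmin genes outside the set in either direction. The same test called 0 of the 22180 genes (0%) at an adjusted p under 0.05, while 2281 had an unadjusted p under 0.05 and 101 were called when the variance prior followed the level of the gene. Of the 7 genes, 4 reached the median level in either group, and 4 were higher and 3 lower in siNF90. Their median log2 difference was 0.075, and that of all 17 synaptotagmins, members included, was 0.185. Both siNF90 values were above both siNTC values for 3 of the 7 and below them for 1. Of all genes, 21.9% were above in this way and 17.9% below. Syt17, a member on the Golgi and early endosomes, had 2.96 and 2.82 in siNF90, against 2.73 and 2.16 in siNTC, a log2 difference of 0.44 ± 0.21 (SE, limma, adjusted p = 0.533). Syt12, which lacks calcium binding, had 1.09 and 1.18 in siNF90, against 1.68 and 1.67 in siNTC, where all 4 values are below the median level (-0.54 ± 0.12, adjusted p = 0.357).

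Of the remaining 5, Syt2, Syt8 and Syt15 overlapped between the groups, and Syt6 and Syt16 were higher on both siNF90 arrays by small gaps (adjusted p from 0.64 to 0.943 in limma). All values of Syt6 and Syt16 lay below the median level. Syt2, the fast sensor of hindbrain and neuromuscular synapses, had 2.57 and 2.83 in siNF90, against 2.69 and 2.81 in siNTC. Syt6, a sensor of the sperm acrosome, had 1.24 and 1.33 in siNF90, against 1.22 and 1.2 in siNTC. Syt8 averaged 1.91 ± 0.42 in siNF90 and 1.77 ± 0.49 in siNTC, Syt15 averaged 2.23 ± 0.078 in siNF90 and 2.29 ± 0.19 in siNTC, and Syt16 averaged 1.68 ± 0.21 in siNF90 and 1.45 ± 0.049 in siNTC (log2, SD, n = 2 each).

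**Figure D3:**
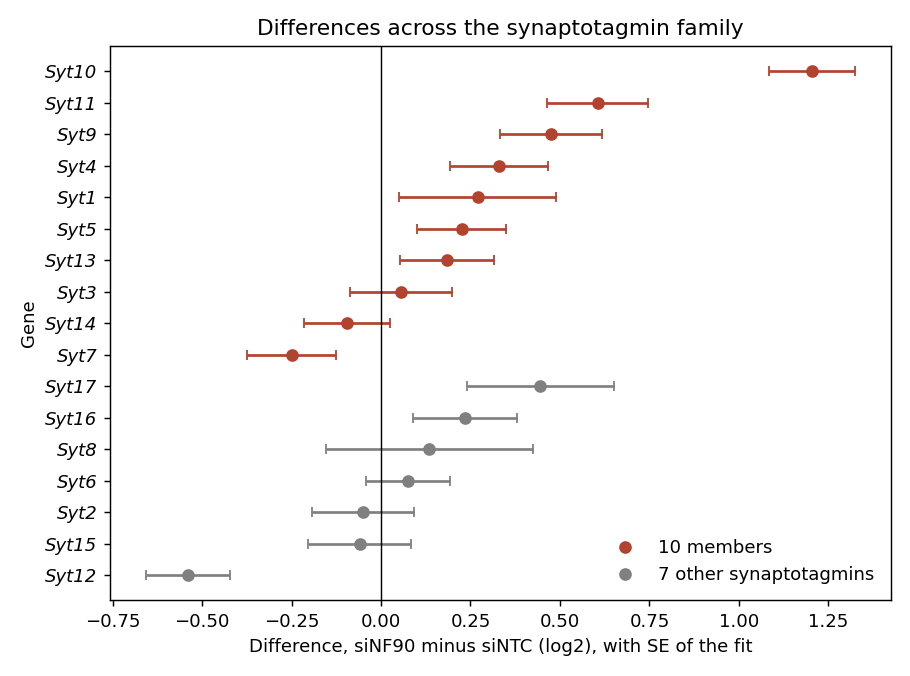
Log2 difference, siNF90 minus siNTC (horizontal axis), of the 10 members (red) and the 7 other synaptotagmin genes (grey), each group ordered by its difference; bars are the SE of the limma fit (n = 2 arrays per group). Syt10 at 1.21 lies to the right of all others, and Syt7 at -0.25 is the lowest member.

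Genes that work beside the synaptotagmins were followed in 4 lists made by function, though with earlier results of these data known. Limma called no gene of any list in either direction. Relatives that also carry C2 domains had 4 of 10 measured genes higher and 6 lower in siNF90, with a median log2 difference of -0.07. Both siNF90 values were above both siNTC values for 1 of the 10 and below them for 4. Of all genes, 21.9% were above in this way and 17.9% below. Sytl4 (granuphilin, which docks insulin granules at the plasma membrane) had 5.97 and 6.01 in siNF90, against 6.2 and 6.27 in siNTC, a difference of -0.24 ± 0.12 (SE, limma, adjusted p = 0.543). Esyt1, a tether between the endoplasmic reticulum and the plasma membrane, had 7.02 and 6.78 in siNF90, against 7.12 and 6.98 in siNTC (adjusted p = 0.773). Doc2a and Doc2g were not analysed here.

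SNAREs and the proteins that dock and prime vesicles had 30 of 43 genes higher and 13 lower, with a median of 0.11. Both siNF90 values were above both siNTC values for 19 of the 43 and below them for 4. Of all genes, 21.9% were above in this way and 17.9% below. Among genes reaching the median level, as 38 of the 43 do, the shares were 26.3% and 21.8%. Rab3d, a GTPase of secretory granules, had 3.3 and 3.19 in siNF90, against 2.58 and 2.8 in siNTC, a log2 difference of 0.56 ± 0.14 (SE, limma, adjusted p = 0.364). Vamp1, a SNARE of vesicles, had 1.23 on both siNF90 arrays, below the median level, against 1.93 and 1.88 in siNTC (-0.68 ± 0.12, adjusted p = 0.357). It reached the median level of 1.84 only through its siNTC mean of 1.905, which lies close to that level. Snap25 and Vamp2, core SNAREs of insulin release named after their values were seen, differed by 0.11 ± 0.12 and 0.44 ± 0.12 (SE), without passing (limma, adjusted p = 0.8 and 0.409).

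Subunits of voltage-gated calcium channels had 11 of 15 genes higher and 4 lower, with a median of 0.055. The groups overlapped for 12 of the 15, and both siNF90 values were above both siNTC values for 2 and below them for 1. Over all genes the groups overlapped for 13352 of 22180, with 21.9% above and 17.9% below. Cacna2d1, an auxiliary subunit that brings channels to the surface, had 6.72 and 6.74 in siNF90, against 6.3 and 6.37 in siNTC, a difference of 0.39 ± 0.12 (log2, SE, limma, adjusted p = 0.409). Cacna1a, the pore of P/Q-type channels, had 5.55 and 5.38 in siNF90, against 5.2 and 5.32 in siNTC (adjusted p = 0.65).

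Vesicle membrane proteins of the SV2, synaptophysin and synapsin families had 10 of 12 genes higher and 2 lower, and a median of 0.29 beside the 0.02 of all genes. For 9 of the 12 both siNF90 values exceeded both siNTC values, where 21.9% of all genes and 26.3% of genes reaching the median level did so (11 of the 12 reach it), and for none of the 12 were both lower. Because the list was chosen with earlier results of these data known, its median and counts are description only. Sv2c, a vesicle glycoprotein, had 5.89 and 5.63 in siNF90, against 4.82 and 5.01 in siNTC. The groups did not overlap, and the log2 difference was 0.84 ± 0.15 (SE, limma, adjusted p = 0.357). Syngr3, a synaptogyrin, had 3.98 and 3.97 in siNF90, against 3.07 and 3.63 in siNTC (0.62 ± 0.2, adjusted p = 0.428). With the variance prior that follows the level, 0.234% of all genes were called higher and 0.221% lower, and 2 genes of these 4 lists were among the higher, Sv2c (limma, adjusted p = 0.0361) and Sv2b (adjusted p = 0.0222). Sv2b, named after its value was seen, had 7.66 and 7.5 in siNF90, against 6.97 on both siNTC arrays.

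**Figure D4:**
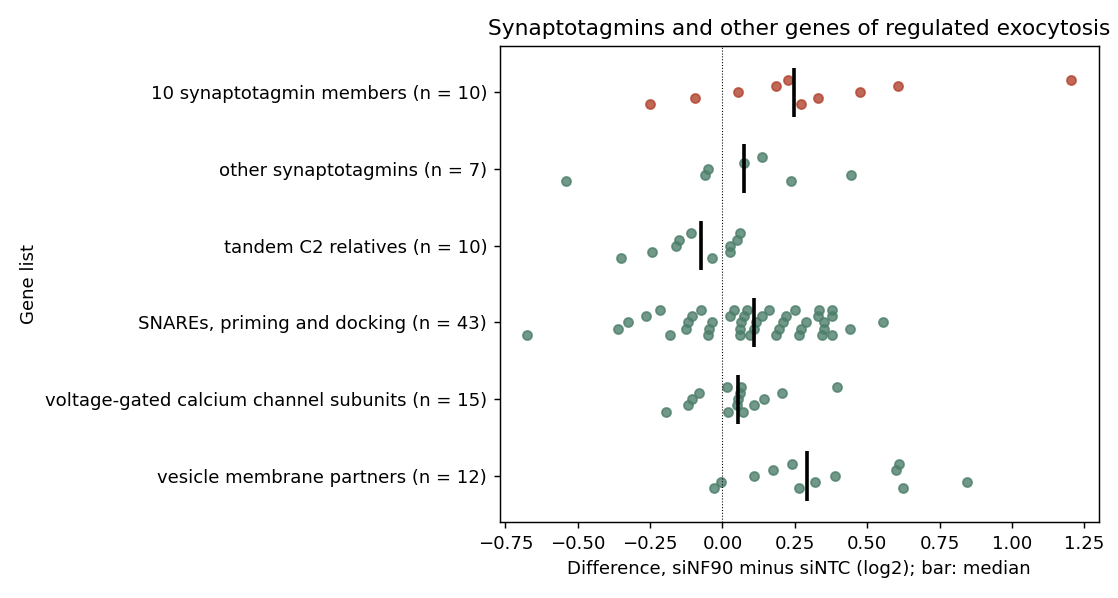
Log2 difference, siNF90 minus siNTC (horizontal axis), of each gene in the 10 members (red) and in 5 lists of other synaptotagmins and exocytosis genes (green); the black bar is the median of the list. The medians run from -0.07 in the C2 relatives to 0.29 in the vesicle membrane partners, with 0.25 for the 10 members. Of the genes shown, test results are given only for single genes of the lists in green, since the members were selected on this comparison.

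Markers of other cell types were read beside these genes. Of 8 neuronal and glial markers 3 reached the median level (Map2, Nefl and Nefm), and Rbfox3, the glutamate transporter genes Slc17a7 and Slc17a6, Gfap and Sox10 lay under it. Their summed log2 values were 27.53 and 28.57 in siNF90 and 27.82 and 27.81 in siNTC. Nefl, a neurofilament gene, had 8.52 and 8.57 in siNF90, against 7.94 and 8.09 in siNTC (limma, adjusted p = 0.357, or 0.0217 with the prior that follows the level). Slc17a7 went the other way, with 0.85 and 1.13 in siNF90, against 1.4 and 1.54 in siNTC (-0.48, adjusted p = 0.417, or 0.287 with that prior). Markers of stroma, endothelium and blood reached the median level in 1 of 7 genes, Cd68, and summed to 11.06 and 12.02 in siNF90 against 10.42 and 11.1 in siNTC, with Ptprc at 1.12 and 1.1 in siNF90 and 0.92 and 1.33 in siNTC. In that list 2 genes were higher in siNF90 and 5 lower, and Cd68 differed by 1.12 (limma, adjusted p = 0.342, or 0.0217 with that prior). Without Cd68 the other 6 summed to 6.62 and 7.54 in siNF90 against 7.1 and 7.75 in siNTC, so the order of the mean sums turned, a sum taken after seeing the data. Exocrine and duct markers reached it in 1 of 7, Krt7, and summed to 10.5 and 12.55 in siNF90 against 11.43 and 10.62 in siNTC. Markers of the other islet cells, Gcg and Sst among them, reached it in 5 of 6 and summed to 25.18 and 25.76 in siNF90 against 25.46 and 25.28 in siNTC. The part of any of these in the synaptotagmin values was not tested.

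The profile of Syt10 over the 4 arrays was set against 11092 genes whose mean reached the median level, each centred on its own mean, by Euclidean distance on the log2 scale. The nearest were Cd68 (a lysosomal glycoprotein, distance 0.11), Cdkn1a (the cell cycle inhibitor p21, 0.20), Enc1 (0.22), 1700007K13Rik (0.22) and Glipr2 (0.23). Cd68 had 4.44 and 4.48 in siNF90, against 3.32 and 3.35 in siNTC. Cdkn1a had 7.42 and 7.33 in siNF90, against 6.33 and 6.39 in siNTC. Enc1, an actin-binding protein, had 5.21 and 5.1 in siNF90, against 3.91 and 4.25 in siNTC. The log2 differences of these 5 genes ran from 1.01 to 1.22, and the distance rests on only 4 arrays. Most of the Syt10 profile is its step between the groups, so a small distance largely restates a difference of similar size. Shared regulation was not tested. Among the members the nearest to Syt10 were Syt11 (distance 0.64) and Syt9 (0.74), at ranks 161 and 345, and the farthest was Syt7 (1.47).

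**Figure D5:**
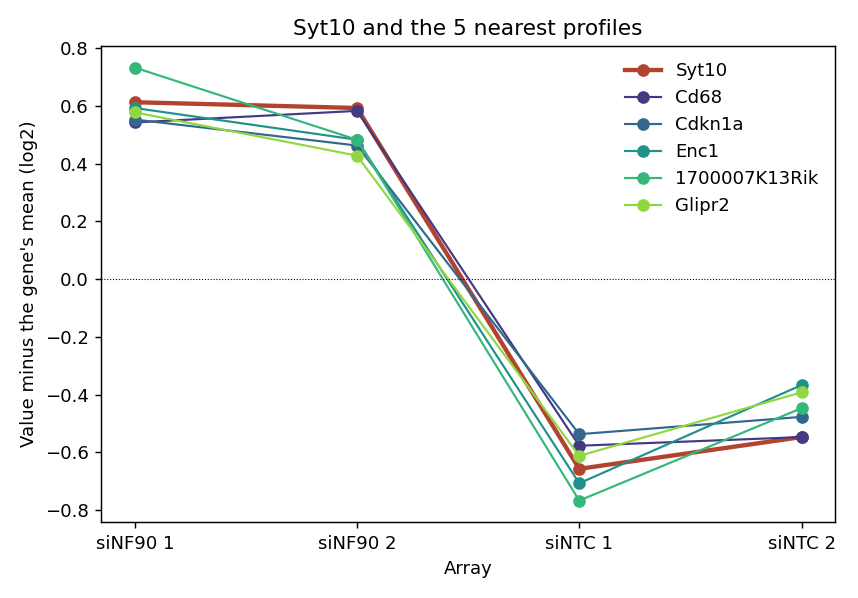
Value minus the mean of the gene over the 4 arrays (vertical axis, log2) on each array (horizontal axis) for Syt10 (thick red line) and the 5 genes with the nearest profile. All 6 lie above 0 on both siNF90 arrays and below 0 on both siNTC arrays, which follows from choosing the 5 by distance to Syt10. Cd68 follows Syt10 most closely, at a distance of 0.11.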

How the data were processed

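The authors deposited log2 values of 41345 probe sets on 4 arrays. Per the submitters' processing notes, the software was Transcriptome Analysis Console. Its version, background correction and normalization are not stated there, and the log base was taken from the range of the values (-0.28 to 12.01). Array medians lay between 1.65 and 1.68. Names come from GEO's platform annotation, in which 23521 probe sets carried 1 symbol, 1814 several and 16010 none. Each of 22180 genes was read from its probe set of highest average.

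In R 4.3.3, limma 3.58.1 (lmFit, then eBayes with 1 prior for all levels) compared siNF90 with siNTC. Tests were two-sided and p-values were adjusted by Benjamini-Hochberg across all genes, at a threshold of 0.05. The fit was tested on simulated data with changes larger than any log2 difference here (-1.655 to 1.23). That test does not show how often changes of the sizes seen here would be called. The number of arrays limits the precision.

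The members and lists were chosen with earlier results of these data known. All members and all other synaptotagmins are named. From each list the 2 genes with the largest difference are named, since none passed, among those whose higher group mean reaches the median level. The 5 genes nearest to Syt10 were named by distance. Alternatives were other normalizations, priors, probe set choices, a filter, a replicate block and leaving out each array.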

Additional observations from a re-analysis of the deposited data

How the results depend on the processing

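The count of 0 genes past the threshold, and of 0 in the lists of exocytosis genes and other synaptotagmins, became 101 (52 higher and 49 lower) and 2 with a trend in the variance prior. Both counts were 0 with quantile normalization, median centring, averaged probe sets, all probe sets tested singly, a filter on level, a robust prior and without each array in turn. The replicate number of the labels as a block also gave 0 calls, and same-numbered arrays did not deviate together (r = -0.02 across genes), so the numbers were not taken to pair the arrays. Leaving out each array gave a median difference of the members between 0.135 and 0.335. Without the first siNF90 array (0.135) this median moved by more than its spread between arrays. The log2 difference of Syt4 was 0.17 as the mean of its 3 probe sets. The other 9 members moved by less than their spread between arrays under the normalizations, filters and block. With 1 array left in a group, its spread is taken from the other group. The smallest adjusted p without an array lay between 0.619 and 0.764. No value here was set against a measure of background.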
